A study of Arabidopsis thaliana with 9 samples.

Results

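The kinesin genes described here are the 23 of 32833 genes in the deposited table whose description contains the word kinesin, in any case. Kinesins are motor proteins that hydrolyse ATP to move along or reshape microtubules. In plants they build and position the spindle, assemble the phragmoplast that lays down the new cell wall at cytokinesis, and link organelles to the cytoskeleton. Pollen holds 2 sperm cells inside a vegetative cell, and the tube that carries them relies on both microtubules and actin. Many other Arabidopsis kinesins carry general descriptions there so 42 further genes of a kinesin family list, 3 of them related to kinesin light chains, are given only for comparison.

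RNA was sequenced from 9 libraries of Arabidopsis thaliana pollen tubes, 3 per group, after 6 h of tube growth. The pollen donor carried a green sperm histone fusion (MGH3p::MGH3-GFP) and a red histone H2B fusion (ACT11p::H2B-mRFP), and all samples have the genotype label WT. In vitro sperm cells and vegetative nuclei were sorted by fluorescence from tubes grown on germination medium. Semi in vivo sperm cells came from tubes that grew for 2 h in emasculated Col-0 pistils and then for 4 h out of the cut pistils on medium, so only that group had contact with pistil tissue. A vegetative nucleus lacks the cytoplasm that a whole sperm cell keeps, and in such bulk samples fewer cells of a type and less RNA per cell cannot be told apart.

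Total counts per library ran from 13768069 to 41118337. The 10 sperm markers, which include HTR10, the gene of the sorting reporter, together had 18340 to 27210 CPM (counts per library total, scaled to per-million units) in the sperm libraries and 130.3 to 362.9 CPM in the nucleus libraries, while the 10 vegetative cell markers had 34.28 to 69.88 CPM and 17530 to 30590 CPM. DAZ3 and PCR11 made up most of the sperm sum, and GEX2 had at most 0.417 CPM in sperm. ACT11, whose promoter drives the red sorting reporter, had 19.8 to 52.2 CPM in sperm, most of the vegetative sum there, and 733.8 to 1291 CPM in nuclei. In vitro sperm library 2 stood apart, with 14203 genes reaching 1 CPM, where the remaining sperm libraries had 7462 to 9867. It also had the highest sum of the 14 pistil and flower markers, 25.14 CPM with 0 of them at 0, while the remaining sperm libraries had 2.344 to 10.71 CPM. Nucleus libraries 1, 2 and 3 had 0.145, 11.09 and 10.28 CPM of these markers. Nucleus library 2 had counts for 10 of the 14 and the most genes at 1 CPM of its group, 10086. Semi in vivo sperm library 3 had the fewest genes of the sperm libraries, 7462, and no counts for 8 of the 23 kinesin genes. Vegetative nucleus library 1 had the fewest genes of all, 6299, and no counts for 15 of the 23 kinesin genes.

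The kinesin genes together took 430.0 to 455.5 CPM in in vitro sperm, 404.8 to 538.4 CPM in semi in vivo sperm and 84.04 to 182.0 CPM in vegetative nuclei. A single gene, ATK4, made up 39.8% to 58.3% of these counts in every library. Of the 23 genes, 7 had a mean of at least 20 CPM in in vitro sperm, and AT4G15885, whose annotated exons span only 342 bp, had no counts in any library. Per length, ATK4 had the highest mean level in in vitro sperm, 59.9 CPM per kb of exon. AT5G33300 followed with 25.1 CPM per kb and ATK3 with 15.6 CPM per kb. AT5G33300 and AT4G15885 are in no subfamily of the kinesin family list and are included by their description alone. MDKIN1 at 8.29, Kin7.2 at 7.72, PAKRP1 at 7.57 and MDKIN2 at 6.35 CPM per kb lay close together. In vegetative nuclei the highest mean levels per length were those of ATK4 at 22.7, ZWI at 5.81 and KP1 at 2.99 CPM per kb.

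**Figure D1:**
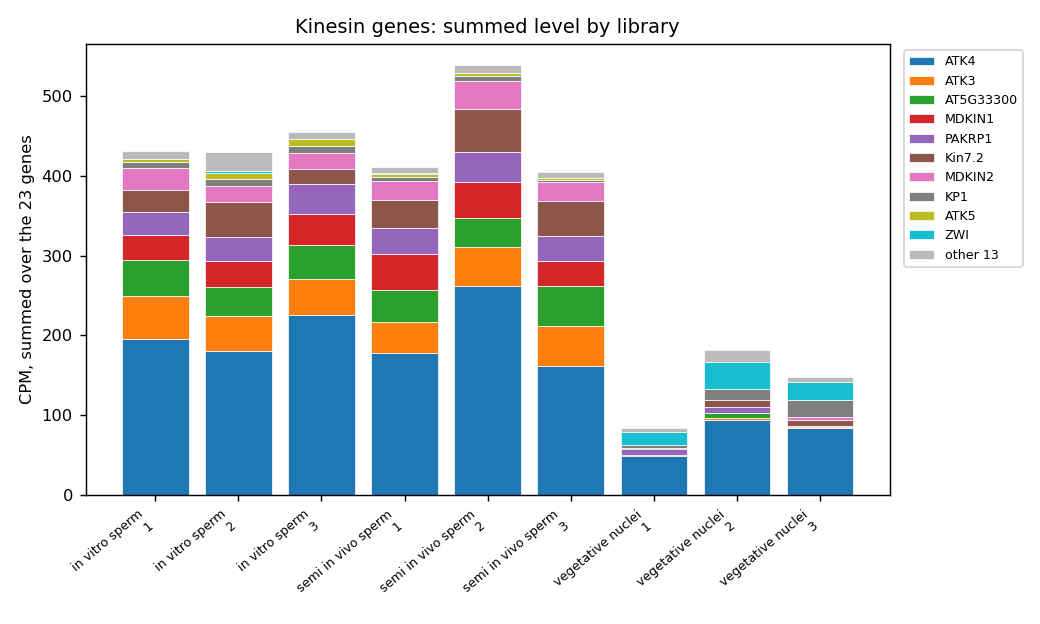
Level of the kinesin genes summed in each library, in CPM, with the 10 most abundant genes coloured separately and the other 13 in grey. The lowest sperm library has 404.8 CPM and the highest nucleus library 182.0 CPM, and ATK4 is the largest share in all 9.

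**Figure D2:**
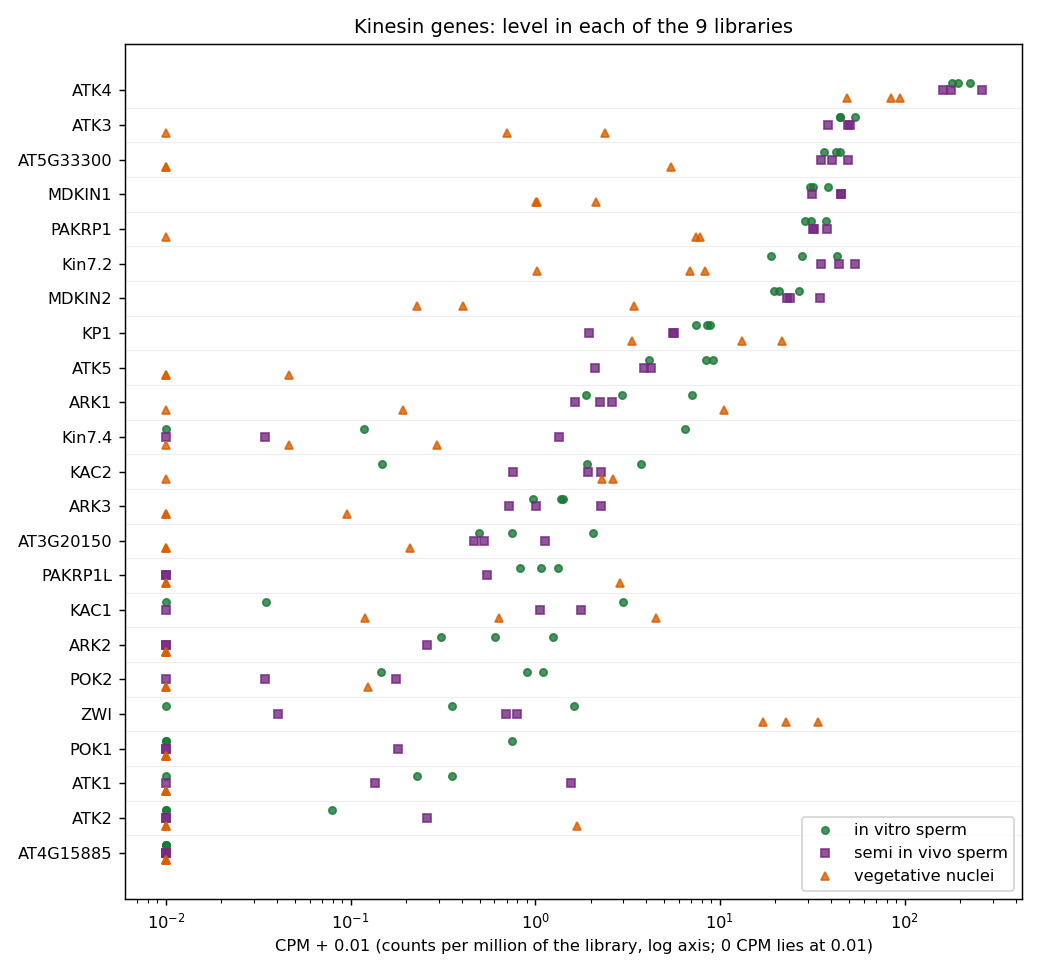
Level of each kinesin gene in each of the 9 libraries, as CPM + 0.01 on a log axis, so that 0 CPM lies at 0.01. Points of the sperm groups lie together for the upper 7 genes, and ZWI is the only gene whose nucleus points all lie above 10 CPM while its sperm points lie below 2 CPM.

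In vitro sperm cells were compared with vegetative nuclei of tubes grown the same way, to see how the motor genes are divided between the germline and the cell that forms the tube. Transcripts of the kinesin-14 genes ATK3, ATK4, ATK5, MDKIN1 and MDKIN2, of the kinesin-7 gene Kin7.2 and of the armadillo-repeat kinesin ARK3 were higher in sperm. Of the 23 genes, 16 passed the filter on low counts, 7 were higher in sperm (43.8% of those tested), 0 were higher in nuclei and 9 did not pass (edgeR quasi-likelihood test, Benjamini-Hochberg adjusted p below 0.05 over all 14061 genes tested). Across all genes tested, 30.7% were higher in sperm and 14.3% higher in nuclei. At an unadjusted p below 0.05 there were 10 of the 16 kinesin genes (62.5%), ZWI among them as the only one higher in nuclei, and 51.8% of all genes. DESeq2 called 9 of 16 higher and 1 lower, beside 38.0% and 20.7% of all genes. Without in vitro sperm library 2 and nucleus library 1, which stand apart, edgeR called 3 of 16 higher (ATK3, ATK5 and MDKIN1) and 1 lower (ZWI), beside 15.7% and 17.3% of all genes. Without in vitro sperm library 1 it called 4 of 17 higher, beside 13.2% of all genes. The median log2 fold change of the 16 genes was 3.57, against 1.70 over all genes tested. The median of all genes moves with the scaling, to 0.66 with library totals only and 0.55 with TMM factors from unfiltered genes, and the lower call among the kinesin genes is ZWI in both. With library totals 5 kinesin genes were higher and 1 lower, beside 25.3% and 18.2% of all genes, and with TMM from unfiltered genes 4 were higher and 1 lower, beside 24.2% and 17.6%. Fitted log2 fold changes lie about 0.94 above the ratio of the CPM values given here, because they use TMM scaling.

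ATK5, a minus-end motor of the spindle midzone, had 4.15, 8.44 and 9.21 CPM in the 3 in vitro sperm libraries and 0, 0 and 0.0366 CPM in the nucleus libraries. The lowest sperm library lay far above the highest nucleus library, in which 1 read was counted. Its log2 fold change was 9.62 (SE 1.58, edgeR adjusted p = 0.00411). ATK3, another kinesin-14 known as KATC, had 53.9, 44.6 and 44.9 CPM in sperm and 0, 2.39 and 0.695 CPM in nuclei, with a log2 fold change of 6.56 (SE 1.45, edgeR adjusted p = 0.0123). ATK4, also called KATD, had 196.0, 179.9 and 225.7 CPM in sperm against 48.95, 94.3 and 84.2 CPM in nuclei. Its groups did not overlap either, but it was abundant in both fractions and differed by only 2.39 in log2 (SE 0.46, edgeR adjusted p = 0.00682). The ATK4 call was lost with TMM factors from unfiltered genes (log2 fold change 1.35, edgeR adjusted p = 0.0872), without an expression filter (1.35, edgeR adjusted p = 0.175) and without the libraries that stand apart (1.56, edgeR adjusted p = 0.056).

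The kinesin-14 genes ATK1 and ATK2 had few counts. ATK1, needed for spindle assembly in male meiosis, had no counts in nuclei, at most 14 in an in vitro sperm library and 3, 64 and 0 in those of semi in vivo sperm. ATK2, also called KATB and a close paralog of ATK3, had 0.0691, 0 and 0 CPM in in vitro sperm and 0, 1.68 and 0 CPM in nuclei. Neither was tested. Reads shared between these paralogs could be split or lost in counting, so single values of the ATK genes are uncertain.

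MDKIN1 and MDKIN2 encode kinesin motors with a di-glucose binding domain. MDKIN1 had 30.9, 31.8 and 38.7 CPM in in vitro sperm and 1.02, 0.996 and 2.12 CPM in nuclei, a log2 fold change of 5.59 (SE 0.76, edgeR adjusted p = 0.00211). MDKIN2 had 26.9, 19.7 and 20.8 CPM in sperm and 0.218, 0.398 and 3.44 CPM in nuclei, a log2 fold change of 5.04 (SE 1.22, edgeR adjusted p = 0.0165). Both genes therefore lay apart in every pair of libraries, although the MDKIN2 call was lost without in vitro sperm library 1 (edgeR adjusted p = 0.0522) and without the libraries that stand apart (log2 fold change 3.92, edgeR adjusted p = 0.0665). Kin7.2 had 27.9, 43.3 and 18.8 CPM in sperm and 1.02, 8.28 and 6.84 CPM in nuclei, with a log2 fold change of 3.56 (SE 0.93, edgeR adjusted p = 0.0205). That call was lost without in vitro sperm library 1 (edgeR adjusted p = 0.0543) or 2 (0.0612), and under 4 further alternatives, but not with RLE factors. The log2 fold change was 2.47 with library totals (edgeR adjusted p = 0.0697), 2.32 with TMM from unfiltered genes (edgeR adjusted p = 0.108), 2.32 without an expression filter (edgeR adjusted p = 0.15) and 1.91 without the libraries that stand apart (edgeR adjusted p = 0.0665).

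**Figure D3:**
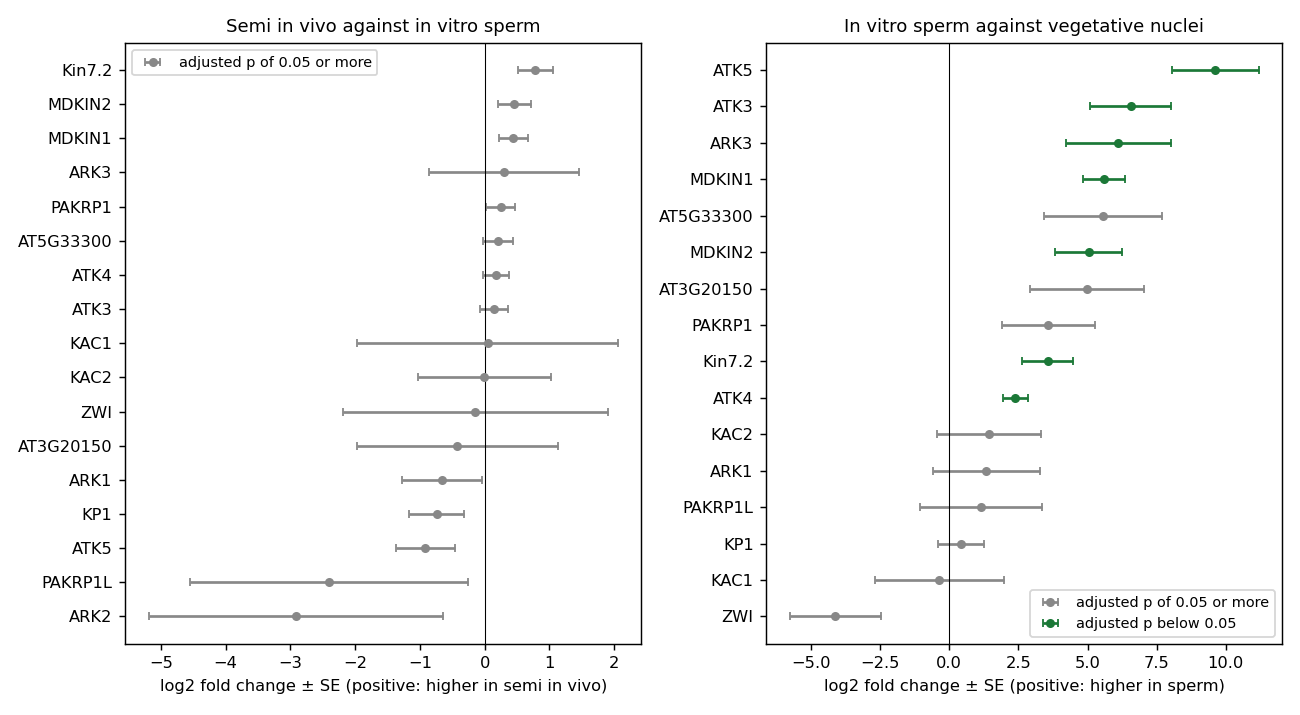
Fitted log2 fold change of each kinesin gene that passed the filter, with its standard error, for semi in vivo against in vitro sperm (left, 17 genes) and in vitro sperm against vegetative nuclei (right, 16 genes). On the left no gene passed the threshold, and on the right the 7 genes in green did, all of them higher in sperm.

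The upstream sequences of MDKIN1, MDKIN2 and Kin7.2 are shown because these genes, all higher in sperm, hold the most copies of 2 short motifs among the sperm-high genes. They are the 250 bases before the annotated gene start in RefSeq's annotation of TAIR10.1, where all 23 genes matched by locus code, each read 5′ to 3′ on the plus strand of chr1:27192490-27192739, chr2:9599170-9599419 and chr2:9141215-9141464 in that order. The counts themselves were made on TAIR10, and no position was taken from them. Capitals mark AACGG, the core of the mitosis-specific activator element bound by MYB3R factors, and AACCG, the core of sites bound by the male germline factor DUO1, and their reverse complements CCGTT and CGGTT.
MDKIN1: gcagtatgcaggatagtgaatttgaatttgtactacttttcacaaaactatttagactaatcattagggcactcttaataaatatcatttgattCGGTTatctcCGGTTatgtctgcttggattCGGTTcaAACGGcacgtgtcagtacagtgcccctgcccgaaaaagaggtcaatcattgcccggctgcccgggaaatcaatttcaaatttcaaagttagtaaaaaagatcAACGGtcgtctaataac
MDKIN2: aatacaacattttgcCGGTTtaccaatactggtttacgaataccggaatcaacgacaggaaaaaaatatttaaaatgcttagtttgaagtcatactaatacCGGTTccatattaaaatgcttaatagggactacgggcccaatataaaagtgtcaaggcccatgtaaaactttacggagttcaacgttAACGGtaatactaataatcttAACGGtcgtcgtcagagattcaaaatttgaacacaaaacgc
Kin7.2: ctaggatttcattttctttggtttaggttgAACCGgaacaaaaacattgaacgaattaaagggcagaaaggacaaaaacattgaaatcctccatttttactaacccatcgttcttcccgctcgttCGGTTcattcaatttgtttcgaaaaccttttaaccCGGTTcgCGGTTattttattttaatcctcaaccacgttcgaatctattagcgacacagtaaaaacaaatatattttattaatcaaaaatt
MDKIN1 held 2 AACGG and 3 AACCG motifs, MDKIN2 held 2 of each, and Kin7.2 held 0 and 4. AACGG occurred upstream of 11 of the 23 kinesin genes (47.8%), of 5 of the 7 that were higher in sperm (71.4%) and of 6 of the other 16 (37.5%). Those 16 are the 9 that did not pass and the 7 that were not tested, not genes shown to be equal in both fractions. Of 27443 protein-coding genes, 20.6% hold it in such a window. Among the 42 other genes of the kinesin list 40.5% hold it. Of their 9 genes higher in sperm 4 hold it (44.4%), and of their 10 higher in nuclei 3 (30.0%). AACCG occurred upstream of 7 of the 23 (30.4%), of 4 of the 7 (57.1%) and of 3 of the other 16 (18.8%). It is held by 23.2% of protein-coding genes, 23.8% of the 42, 4 of the 9 (44.4%) and 3 of the 10 (30.0%). ATK5, with the largest fold change, held neither. The motifs can overlap where one strand's core runs into the other's, as they do upstream of 3.06% of protein-coding genes, and 0 of the 23 kinesin genes had such a pair. A match is a description of letters, not a bound site.

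Of the 6 listed kinesin-12 genes, 5 are among the 23, and of these PAKRP1 was well detected and 4 were rare. PAKRP1, a motor at the phragmoplast midline that is needed together with PAKRP1L for cytokinesis of the microspore, had 29.0, 31.1 and 37.6 CPM in in vitro sperm, 32.2, 38.2 and 31.8 CPM in semi in vivo sperm and 7.77, 7.45 and 0 CPM in nuclei. Every sperm value lay above every nucleus value, but the log2 fold change of 3.59 had an SE of 1.67 and did not pass (edgeR adjusted p = 0.123). In the 6 fits that left out a library, the edgeR adjusted p of PAKRP1 reached 0.199. PAKRP1 passed in 1 of them, that without nucleus library 3, the one at 0 (log2 fold change 2.98, edgeR adjusted p = 0.034). PAKRP1L, its close paralog, had 1.31, 0.814 and 1.06 CPM in in vitro sperm and 0, 0 and 2.85 CPM in nuclei (log2 fold change 1.16, SE 2.19, edgeR adjusted p = 0.703). POK1 and POK2, which mark the future division plane, were too rare to be tested. POK2 had 0.898, 1.09 and 0.136 CPM in in vitro sperm, and POK1 was counted in 1 in vitro sperm library only, library 2, with 30 reads. AT3G20150 had 0.484, 2.05 and 0.736 CPM in in vitro sperm and 0, 0.199 and 0 CPM in nuclei (log2 fold change 5.00, SE 2.06, edgeR adjusted p = 0.0887).

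AT5G33300, described only as related to chromosome-associated kinesins, had 44.9, 36.6 and 42.6 CPM in in vitro sperm and 0, 5.46 and 0 CPM in nuclei. The groups did not overlap, and nucleus library 2 held all of the nucleus counts. The log2 fold change of 5.56 (SE 2.13) did not pass (edgeR adjusted p = 0.0707). It passed without that library (edgeR adjusted p = 0.00236), which leaves no counts in nuclei, and with DESeq2 (adjusted p = 0.0108). In the 6 fits that left out a library, it passed in 1, and its edgeR adjusted p reached 0.132. Across the tested kinesin genes, 10 had every in vitro sperm value above every nucleus value and 1, ZWI, the reverse, while this held for 39.1% and 24.9% of all genes tested.

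ZWI was the kinesin gene with the highest level in nuclei relative to sperm. It encodes a calmodulin-binding minus-end motor, first known from trichome branching, whose contact with microtubules is regulated by calcium. It had 17.2, 33.8 and 22.7 CPM in the nucleus libraries, 0.346, 1.60 and 0 CPM in in vitro sperm and 0.791, 0.681 and 0.0304 CPM in semi in vivo sperm. The groups did not overlap, but the log2 fold change of -4.11 (SE 1.65) did not pass (edgeR adjusted p = 0.0814). It passed by DESeq2 (-4.46, adjusted p = 0.00302), with library totals only (-5.22, edgeR adjusted p = 0.0452), without in vitro sperm library 2 (-6.56, edgeR adjusted p = 0.0403) and without nucleus library 1 (-5.21, edgeR adjusted p = 0.0496). Leaving out 1 library, ZWI passed in 2 of 6 fits, and its edgeR adjusted p reached 0.211. It also passed when semi in vivo sperm took the place of in vitro sperm (-4.49, edgeR adjusted p = 0.0245). The vegetative cell markers given above were also detected at low levels in sperm. The highest sperm value of ZWI lay in in vitro sperm library 2, which also had the highest pistil and flower markers. The part of vegetative or other cells in the sperm level of ZWI was not tested.

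KP1, a kinesin-14 that associates with mitochondria, was detected in every library, with 7.46, 8.78 and 8.50 CPM in in vitro sperm and 3.34, 13.1 and 21.6 CPM in nuclei (log2 fold change 0.43, SE 0.83, edgeR adjusted p = 0.711). The groups overlapped. KAC1 and KAC2 act in actin-based chloroplast movement. KAC1 had 2.97, 0.0247 and 0 CPM in in vitro sperm and 4.50, 0.626 and 0.110 CPM in nuclei (log2 fold change -0.36, SE 2.33). KAC2 had 0.138, 3.75 and 1.91 CPM in in vitro sperm and 0, 2.30 and 2.63 CPM in nuclei (log2 fold change 1.45, SE 1.88). For both the spread within a group exceeded the difference between the groups. The armadillo-repeat kinesins, which act on microtubules in root hair and root growth, were all low. ARK3 had 0.968, 1.41 and 1.36 CPM in in vitro sperm and 0, 0.0853 and 0 CPM in nuclei, and its log2 fold change of 6.12 (SE 1.90, edgeR adjusted p = 0.0336) was past the threshold in 1 of 6 fits that left out a library, that without nucleus library 2. In these fits the edgeR adjusted p of ARK3 reached 0.142, and over all alternatives, by edgeR or DESeq2, it reached 0.182. With library totals only it was 0.051 (edgeR). ARK3 was also not called without the libraries that stand apart. ARK2 had 1.24, 0.592 and 0.300 CPM in in vitro sperm and was at 0 in each nucleus library. Its sperm mean of 0.712 CPM is 18.1 times a floor of 3 counts over the nucleus group, with the spread of the sperm values left out. ARK2 did not pass the filter and was not tested. ARK1 had 10.5 CPM in nucleus library 2 against 0 and 0.183 CPM in the others, and 1.87, 7.03 and 2.94 CPM in in vitro sperm (log2 fold change 1.34, SE 1.93, edgeR adjusted p = 0.612). It passed in 1 of 6 fits that left out a library, that without nucleus library 2 (6.28, edgeR adjusted p = 0.046). The edgeR adjusted p of these fits reached 0.909. Kin7.4 had 0, 6.47 and 0.109 CPM in in vitro sperm, 0, 0.0243 and 1.34 CPM in semi in vivo sperm and at most 0.284 CPM in nuclei. The highest sperm values of Kin7.4, POK1, POK2, ARK1, ZWI, KAC2, AT3G20150 and KP1 all lay in in vitro sperm library 2. That library had the highest pistil and flower markers, and the part of other cells in these values was not tested.

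Semi in vivo sperm were compared with in vitro sperm to ask whether passage through the pistil went with a change in these genes. No kinesin gene passed the test. Of 17 genes tested, 0 passed in either direction by edgeR quasi-likelihood with Benjamini-Hochberg adjustment, against 0.630% of 14131 genes (0.538% higher after the pistil and 0.0920% lower), 1 (5.88%) had an unadjusted p below 0.05, beside 8.05% of all genes, and DESeq2 called 0, beside 2.46% of all genes. The median log2 fold change of the 17 was 0.04, against -0.17 over all genes. For the 7 genes at 20 CPM or more, log2 fold changes ran from 0.14 (ATK3) to 0.78 (Kin7.2), with SEs of 0.21 to 0.27. TMM scaling adds 0.19 to these log2 values, and with library totals only ATK3 was at -0.05 and ATK4 just below 0, while the other 5 stayed above 0. Kin7.2 had 35.5, 54.3 and 44.0 CPM in semi in vivo sperm against 27.9, 43.3 and 18.8 CPM in in vitro sperm. These groups overlap, and the adjusted p was 0.285 (edgeR, SE 0.27). MDKIN1 had 45.4, 45.3 and 31.5 CPM in semi in vivo sperm, a log2 fold change of 0.45 (SE 0.23), and MDKIN2 had 23.0, 34.7 and 24.0 CPM, a log2 fold change of 0.46 (SE 0.26).

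Among the less abundant genes, KP1 had 5.54, 5.67 and 1.95 CPM in semi in vivo sperm, all below the in vitro sperm values (log2 fold change -0.74, SE 0.43, edgeR adjusted p = 0.782). PAKRP1L and ARK2 were also below in every library, each with counts in a single semi in vivo library, of 0.542 and 0.250 CPM. Such separation in that direction was found for 3 of the 17 kinesin genes and for 12.2% of all genes tested, and in the other direction for 0 of 17 and for 4.15%. ATK5 had 4.25, 3.89 and 2.10 CPM in semi in vivo sperm and overlapped in vitro sperm (log2 fold change -0.91, SE 0.45, edgeR adjusted p = 0.653). Against vegetative nuclei, semi in vivo sperm had log2 fold changes of 8.55 for ATK5, 6.50 for ATK3, 6.03 for ARK3, 5.88 for MDKIN1, 5.37 for MDKIN2, 4.10 for Kin7.2 and 2.43 for ATK4. Both comparisons share the nucleus libraries.

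Of the 42 other genes of the kinesin list, 32 were tested in in vitro sperm against nuclei by edgeR. Of these 32, 9 were higher in sperm (28.1%), 10 were higher in nuclei and 13 did not pass. Over all genes, 30.7% were higher in sperm and 14.3% higher in nuclei. The 10 include CMU2 and CMU3, which are related to kinesin light chains. The median log2 fold change of the 32 was 1.44, against 1.70 over all genes. Whether this division differs from that of the 23 genes was not tested. The kinesin-12 gene AT3G44050 had a high sperm level, with 699.8, 819.0 and 694.6 CPM in in vitro sperm and 10.5, 24.5 and 0.878 CPM in nuclei. The kinesin-7 gene AT5G42490 had a high nucleus level, with 576.5, 1087 and 1357 CPM against 0.415, 1.11 and 0.164 CPM in in vitro sperm. AT1G73860, a kinesin-14, followed with 326.8, 567.5 and 477.3 CPM in nuclei. Their mean levels per length in nuclei, 270.3 and 125.8 CPM per kb, compare with 5.81 CPM per kb for ZWI. Between the sperm groups, 35 of the 42 were tested and 0 passed by edgeR or by DESeq2, beside 0.630% and 2.46% of all genes. By edgeR 6 (17.1%) had an unadjusted p below 0.05, beside 8.05% of all genes. Among these 6, PAKRP2 had 8.91, 12.6 and 16.2 CPM in semi in vivo sperm and 5.87, 7.53 and 5.78 CPM in in vitro sperm. Its log2 fold change was 1.18 (SE 0.34, edgeR adjusted p = 0.167). TETRASPORE was at 0.67 (SE 0.30) and CMU3, in the other direction, at -1.12 (SE 0.51). FRA1, not among the 6, was at 0.44 (SE 1.58), and HINKEL was not tested.

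**Figure D4:**
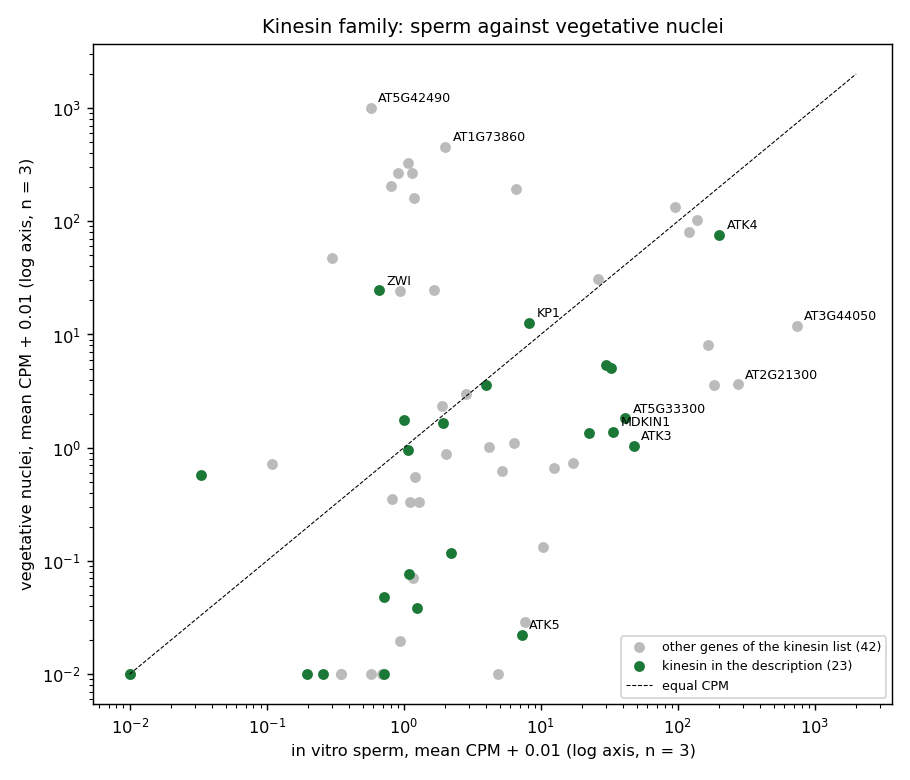
Mean CPM + 0.01 in in vitro sperm and in vegetative nuclei (both log axes, n = 3 each) for the 23 kinesin genes in green and the 42 other genes of the kinesin list in grey, with the line of equal CPM. ATK4 is the highest green point in both directions, ZWI lies above the line at 24.6 CPM in nuclei, and AT5G42490, among the other genes, has the highest nucleus mean of the list at 1007 CPM.

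A list of 31 partner genes holds genes of microtubule proteins and of kinases from kinesin pathways. Of these, 20 were tested between in vitro sperm and nuclei, 9 were higher in sperm (45.0%) and 2 in nuclei (edgeR). Over all genes the shares were 30.7% and 14.3%. The bundling protein genes MAP65-4 and MAP65-5 were higher in sperm: MAP65-4 had 3.94, 6.69 and 7.71 CPM there and no counts in nuclei, and MAP65-5 had 7.33, 14.1 and 8.69 CPM and at most 0.0366 CPM in nuclei. MAP65-9 was higher in nuclei, with 99.7, 106.2 and 153.7 CPM against 0, 1.51 and 0 CPM in sperm. TIO, the Fused-type kinase that acts with kinesin-12 in pollen cytokinesis, had 3.18, 4.07 and 2.37 CPM in in vitro sperm and 0 CPM in all nucleus libraries. Its sperm mean is 81.5 times a floor of 3 counts over the nucleus group, with the spread of the sperm values left out. The fitted change passed (edgeR adjusted p = 0.0112). Of the 3 EB1 genes, which bind microtubule plus ends, EB1a was higher in sperm, with mean levels (n = 3) of 160.5 CPM there against 2.44 CPM in nuclei. EB1b was higher in nuclei, with mean levels of 13.3 and 215.2 CPM and a log2 fold change of -3.07 (SE 0.52). EB1c had 17.2, 18.4 and 18.2 CPM in sperm and 0, 2.62 and 0 CPM in nuclei and did not pass (log2 fold change 5.42, SE 2.02, edgeR adjusted p = 0.0653). TPX2 and EDE1, of spindle assembly, were higher in sperm, with log2 fold changes of 3.80 (SE 0.78) and 6.51 (SE 0.50). Between the sperm groups 21 of these genes were tested and 0 passed by edgeR, and 1 (4.76%) had an unadjusted p below 0.05, beside 8.05% of all genes.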

How the data were processed

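The authors deposited raw counts per gene for 9 libraries. Per the labels' protocols these were Smart-seq2 libraries, a method without molecular identifiers or strand marking. Per the submitters' processing notes, the tools were Trim Galore, HISAT2 and featureCounts, and the genome was TAIR10. Versions, gene set, strand setting and handling of reads with several matches: not given in the sources used here. Therefore overlapping genes and close paralogs are uncertain. Every entry names a gene.

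The kinesin genes were found by the description column. Each comparison was fitted on the whole table with its own 6 libraries in edgeR 4.0.16 (R 4.3.3): filterByExpr with a minimum count of 10, TMM factors, robust quasi-likelihood fit, F test, Benjamini-Hochberg adjustment, threshold 0.05. Each SE was obtained by dividing the log2 fold change, without its sign, by the root of F. Printed CPM use library totals without TMM. The procedure was also run on simulated counts, with changes put only into genes of at least 10 CPM. That run covers neither rarer genes, such as ATK5 and ARK3, nor libraries that stand apart. Exon lengths and upstream sequences are RefSeq's (TAIR10.1).

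Named genes were up to 12 higher and 12 lower per comparison past the threshold with at least 10 CPM, the most abundant gene of each subfamily in each group, and a fixed set of well-known kinesins. The values of ATK2, Kin7.4, AT3G20150, AT4G15885 and KP1, and of genes outside the 23 beyond that set, were chosen after they were seen. The members and lists were chosen with earlier results of these data known. HINKEL, TETRASPORE, PAKRP2 and FRA1, in the fixed set but not among the 23, are described between the sperm groups. Against nuclei they are covered by the counts of the kinesin list.

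Nothing in the labels says that replicates came from separate plants, so p-values measure the spread between these libraries, which may be technical. No libraries of a group were near duplicates (chi-square per gene of 28.03 or more). Alternatives were RLE factors, library totals, TMM from unfiltered genes, DESeq2 1.42.0, no filter, at least 5 CPM in 3 libraries, a replicate block, leaving out 1 library at a time, all 9 libraries together and semi in vivo in place of in vitro sperm. Leaving out the libraries that stand apart (in vitro sperm 2 with semi in vivo sperm 3 or nucleus 1) was chosen after seeing the data. Floors cover counting error in the nucleus group only, not the spread of the sperm values, and PCR copies are not independent molecules.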

Additional observations from a re-analysis of the deposited data

How the results depend on the processing

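Between the sperm groups the number of kinesin genes called was 0 as reported and in every alternative run, by edgeR or DESeq2, while genes called over the whole table ran from 0 to 347. Between in vitro sperm and nuclei the number was 7 as reported and 4 to 9 with 1 library left out. It was 4 (3 higher in sperm, 1 lower) without in vitro sperm library 2 and nucleus library 1, 5 without a filter, 10 by DESeq2 and 8 with semi in vivo sperm. ATK3 and MDKIN1 passed under every alternative run, and ATK5 under every one that tested it, since it did not reach 5 CPM in 3 libraries. No called log2 fold change reversed its sign. The causes of lost calls were not tested. The replicate numbers were not taken to pair the libraries, since not every same-numbered pair correlated above 0.1 and not every library correlated best with its own number. For same-numbered pairs the correlations of deviations were -0.015 to 0.134 between the sperm groups and 0.023 to 0.049 between sperm and nuclei. For differently numbered pairs they were -0.174 to 0.138 and -0.053 to 0.026. With a replicate block, 0 kinesin genes were called between the sperm groups and 9 between sperm and nuclei (8 higher, 1 lower), with AT5G33300, PAKRP1 and ZWI past the threshold and ARK3 not. Over the whole table the block moved the calls from 89 to 223 and from 6320 to 5790. SEs of kinesin genes reached 2.28 in log2 between the sperm groups and 2.33 between sperm and nuclei.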
